A study of Mus musculus with 20 samples.

Results

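RNA-seq counts of Hepa-1 cells, a mouse hepatoma line, were compared between the joint exposure to hexavalent chromium, Cr(VI), plus benzo[a]pyrene (B[a]P) and exposure to neither, at passage 25. The comparison held 4 of the 20 libraries of the series, chosen by their labels and paired by replicate number. The joint group was 2 libraries of cells grown with Cr(VI) for 25 passages and then given B[a]P for 8 hours. Set beside it were 2 libraries of B[a]P alone (25 passages without Cr(VI), then B[a]P for 8 hours) and 2 of Cr(VI) alone (25 passages with Cr(VI), then the solvent DMSO for 8 hours). The group with neither agent was 2 libraries of cells grown for 25 passages without Cr(VI) and given DMSO for 8 hours. The 2 joint libraries and the 2 with neither agent of passage 20 share no library with these. The spread was estimated over all 12 libraries of passage 25, which also include 4 of cells grown for 20 passages with Cr(VI) and 5 without, given B[a]P or DMSO for 8 hours (2 each). All groups are the same tumour-derived line, so none stands for normal liver. As labelled, the doses were 0.5 mM of Cr(VI) and 5 mM of B[a]P, although the title of the series describes the concentrations as low. The passage is taken from its own label, since the sample titles read 27 in place of 25. The study asked whether lasting growth with chromium alters the messenger RNA response to B[a]P.

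B[a]P is a combustion product that binds the aryl hydrocarbon receptor (AHR), a transcription factor that enters the nucleus, pairs with ARNT and switches on cytochrome P450 genes. The P450 enzymes then oxidise B[a]P to reactive diol epoxides that bind DNA and can block transcription and replication, and DNA damage of this kind activates p53. Chromate enters cells through anion carriers and is reduced inside them, which generates oxidative stress and chromium-DNA adducts.

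Total counts were 31596536 and 31802755 in the joint libraries and 34290046 and 21795837 in those with neither agent. The replicate numbers marked a large difference at passage 25. In the replicate 2 libraries of all 6 groups, 14776 to 15329 genes were detected, and 29.6% to 34.3% of counts fell on the 100 most counted genes. Replicate 1 of the joint exposure stood apart from the other replicate 1 libraries in the opposite direction, with 17173 genes detected against 16049 to 16491, and 15.7% of counts in the 100 most counted genes against 18.4% to 26.0%. Its 30 ribosomal protein genes summed to 28648 CPM, the count scaled to a fixed library total, and those of joint replicate 2 to 65625 CPM, against 42089 and 61397 CPM with neither agent. Counts of genes past the threshold are therefore given with and without this library where it matters. The liver markers Alb, Trf, Krt8 and Krt18 were present in every library, with Alb at 1351 and 4146 CPM in joint libraries and 2330 and 4818 CPM with neither agent. Apoa1 was at 0 in all 4 libraries, and Apob and Hnf4a had at most 7 counts in any of them, so several defining hepatocyte genes were absent from this line.

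The AHR and ARNT pair binds DNA through the core letters GCGTG. The 250 bases before the annotated start of 4 genes that rose are shown, because these genes stand for the receptor's classical target (Cyp1a1), its feedback inhibitor (Tiparp), and genes among the largest rises (Selenbp1 and Ccno). Capitals mark GCGTG on either strand, which reads CACGC on the other one, in sequences from RefSeq on GRCm38.p6. All are on the plus strand, Cyp1a1 at chr9:57697363-57697612, Tiparp at chr3:65528197-65528446, Selenbp1 at chr3:94932833-94933082 and Ccno at chr13:112987552-112987801. For Cyp1a1 the start used is not the first base of the gene's annotated span, 57687928 to 57703824, so its window lies inside that span.
Cyp1a1: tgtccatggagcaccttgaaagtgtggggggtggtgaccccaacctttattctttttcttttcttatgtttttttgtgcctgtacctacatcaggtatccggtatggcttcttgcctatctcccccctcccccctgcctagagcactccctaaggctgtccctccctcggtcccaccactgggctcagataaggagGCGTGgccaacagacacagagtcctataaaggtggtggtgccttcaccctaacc
Tiparp: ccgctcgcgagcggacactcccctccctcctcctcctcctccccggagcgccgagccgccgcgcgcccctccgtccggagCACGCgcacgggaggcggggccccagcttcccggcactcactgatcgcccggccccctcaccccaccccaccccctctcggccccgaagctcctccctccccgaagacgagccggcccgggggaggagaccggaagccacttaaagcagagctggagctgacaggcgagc
Selenbp1: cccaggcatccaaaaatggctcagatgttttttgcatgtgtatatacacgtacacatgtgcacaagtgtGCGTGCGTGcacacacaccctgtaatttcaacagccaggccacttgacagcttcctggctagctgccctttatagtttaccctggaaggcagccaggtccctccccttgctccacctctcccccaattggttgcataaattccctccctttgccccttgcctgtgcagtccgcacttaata
Ccno: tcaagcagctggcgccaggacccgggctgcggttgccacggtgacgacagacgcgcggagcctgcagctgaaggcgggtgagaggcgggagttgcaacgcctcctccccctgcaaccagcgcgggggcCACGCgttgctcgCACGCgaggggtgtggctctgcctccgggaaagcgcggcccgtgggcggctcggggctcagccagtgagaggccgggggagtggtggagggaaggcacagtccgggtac
The motif began 54 bases before the start in Cyp1a1 and 170 bases before it in Tiparp. Selenbp1 held an overlapping pair at 181 and 177 bases, and Ccno held a pair, the nearer at 109. The letters are common. GCGTG was found in this window in 100 of the 201 genes that rose and have a promoter in the table (49.8%), in 144 of 264 that fell (54.5%) and in 5144 of all 10709 tested genes with a promoter (48.0%). The antioxidant response element TGACNNNGC, searched the same way, was found in 14.9% of genes that rose, 13.3% of those that fell and 13.7% of all.

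The joint exposure raised most of the AHR target genes tested and some antioxidant and p53 target genes, and lowered many genes of long genomic span. Of 13692 genes tested, 594 passed an adjusted p of 0.05 (4.34%; edgeR's quasi-likelihood test with the replicate number as a block and Benjamini-Hochberg adjustment). Of these, 257 were higher (1.88%) and 337 lower (2.46%), while 2694 had an unadjusted p under 0.05. By over 2-fold, 222 rose and 271 fell, and by over 4-fold 65 rose and 38 fell. In the 2 replicate pairs taken singly, 256 of the 257 and all 337 had the fitted sign. These genes were selected by a fit to the same pairs, so this agreement is no separate support. Of all 13692 genes, 8108 had the same sign in both pairs. The calls rest on the pairing: without the replicate block 0 genes passed in edgeR, and 506 had an unadjusted p under 0.05. In a fit to all 20 libraries without the block 12 passed, which were Btg2, Cyp1a1, Cyp1a2, Bmf, Nqo1, Ido2, Tnfaip2 and Aox3 among the rises and Ung, Fhod3, Shb and Gm7694 among the falls. Leaving out joint replicate 1 left 395 calls, 278 of them shared with the 594. Without joint replicate 2 there were 237, without replicate 1 of neither agent 107, and without its replicate 2 there were 35.

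**Figure D1:**
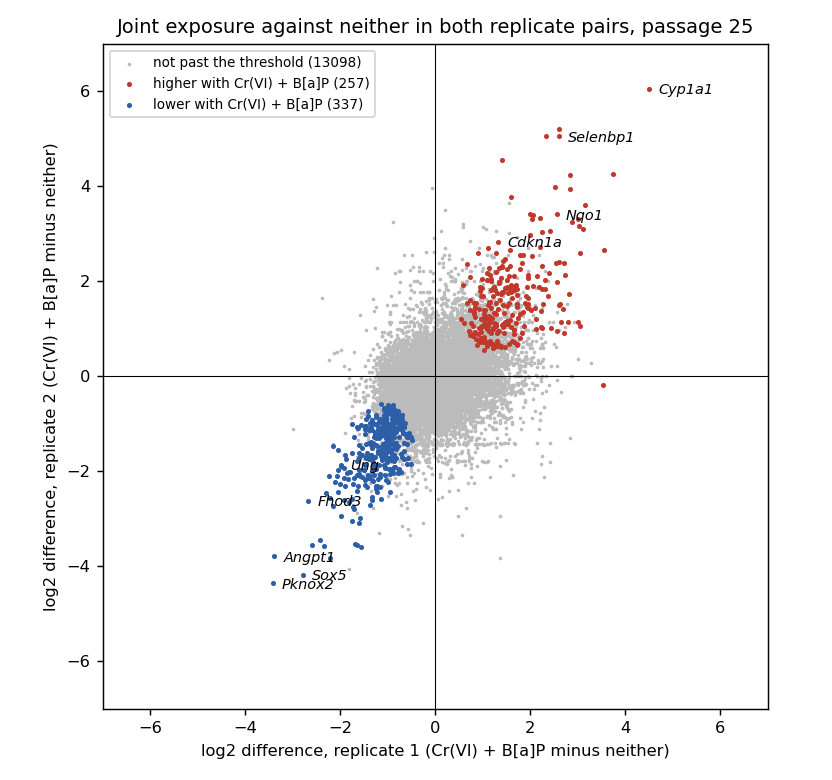
Log2 difference of the joint exposure minus neither for each of 13692 genes, replicate 1 on the x axis and replicate 2 on the y axis, with genes past the threshold in colour. The 257 higher and 337 lower genes lie in the upper right and lower left, except 1 of the higher genes, and over all genes the Pearson r between the pairs was 0.40.

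Genes that the AHR is known to switch on moved most. Of 19 AHR target genes tested, 13 rose and 0 fell, against 1.88% and 2.46% of all genes, and the list's median was log2 2.32 against -0.02 for all genes. It was 2.19 in the replicate 1 pair and 2.56 in the replicate 2 pair. Between 8 and 12 of the 19 passed when any 1 of the 4 libraries was left out, with 12 when that was joint replicate 1.

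Cyp1a1 encodes the cytochrome P450 that oxidises B[a]P itself. It was counted at 847 and 1861 CPM in joint libraries, 1246 and 1738 CPM with B[a]P alone, 31.9 and 24.5 CPM with Cr(VI) alone and 37.3 and 28.0 CPM with neither agent. Both joint libraries lay far above both libraries with neither agent, and joint replicate 1 lay below and joint replicate 2 above both libraries of B[a]P alone. The fold was 40.3 (log2 5.33 ± 0.45 SE, 2 against 2 libraries, adjusted p = 1.46e-04). Cyp1a2, its neighbour on chromosome 9, was at 27.6 and 54.1 CPM with the joint exposure and 3.81 and 3.44 CPM with neither agent, 10.8-fold higher. Cyp1b1, another P450 of aromatic hydrocarbons, was at 13.0 and 3.64 CPM against 2.81 and 0.94 CPM, and rose by log2 2.10 ± 0.43 (adjusted p = 0.0173). Its joint replicate 2 lay only a little above replicate 1 of neither agent, and the difference shows within the pairs.

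Other members that rose included genes of enzymes other than the P450s. The quinone reductase gene Nqo1 was at 297 and 488 CPM with the joint exposure and 50.5 and 45.7 CPM with neither agent, 8.20-fold higher (log2 3.04 ± 0.32, adjusted p = 7.19e-04). The aldehyde dehydrogenase gene Aldh3a1 rose 12.2-fold and the alcohol dehydrogenase gene Adh7 8.82-fold. Xdh, which encodes xanthine oxidoreductase, had 169 and 317 CPM in joint libraries against 41.3 and 54.3 CPM with neither agent, and the aldehyde oxidase gene Aox3 had 29.1 and 25.2 CPM against 7.99 and 4.22 CPM. Neither gene's groups overlapped. Selenbp1, a selenium-binding protein gene, and its close paralog Selenbp2 rose 15.8-fold and 14.6-fold, but the table may not separate their reads. Selenbp1 was at 11.6 and 97.4 CPM in joint libraries and 1.86 and 2.87 CPM with neither agent, so the size of its rise differed widely between the replicates. Members that did not pass were Gsta1 (log2 0.45), Gsta2 (0.18), Ugt1a6a (0.34), Ugt1a6b (0.34), Nfe2l2 (-0.18) and Slc7a5 (-0.57). The Ugt1a6 genes share exons.

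Tiparp encodes a mono-ADP-ribosyltransferase that restrains the AHR. It was at 129 and 24.8 CPM in joint libraries, 97.1 and 37.5 CPM with B[a]P alone, 13.8 and 2.98 CPM with Cr(VI) alone and 19.5 and 5.58 CPM with neither agent. Within each replicate number the joint library was higher, by log2 2.72 and 2.14, and the fitted rise was 5.47-fold (log2 2.45 ± 0.32, adjusted p = 0.00191). The receptor gene Ahr itself was at 92.0 and 23.0 CPM against 122.5 and 49.9 CPM with neither agent and did not pass (log2 -0.77 ± 0.36, adjusted p = 0.255). Ahrr, the other repressor, had 2 and 0 counts with the joint exposure and 0 and 0 with neither agent, too few to test. Of 15 genes of the receptor complex and its cofactors, 1 rose (Tiparp) and 1 fell (13.3% called, against 4.34% of all genes). The fall was that of the coactivator gene Ncoa2 (log2 -1.41 ± 0.36, adjusted p = 0.0465), a call lost in each of the 4 leave-one-out fits.

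**Figure D2:**
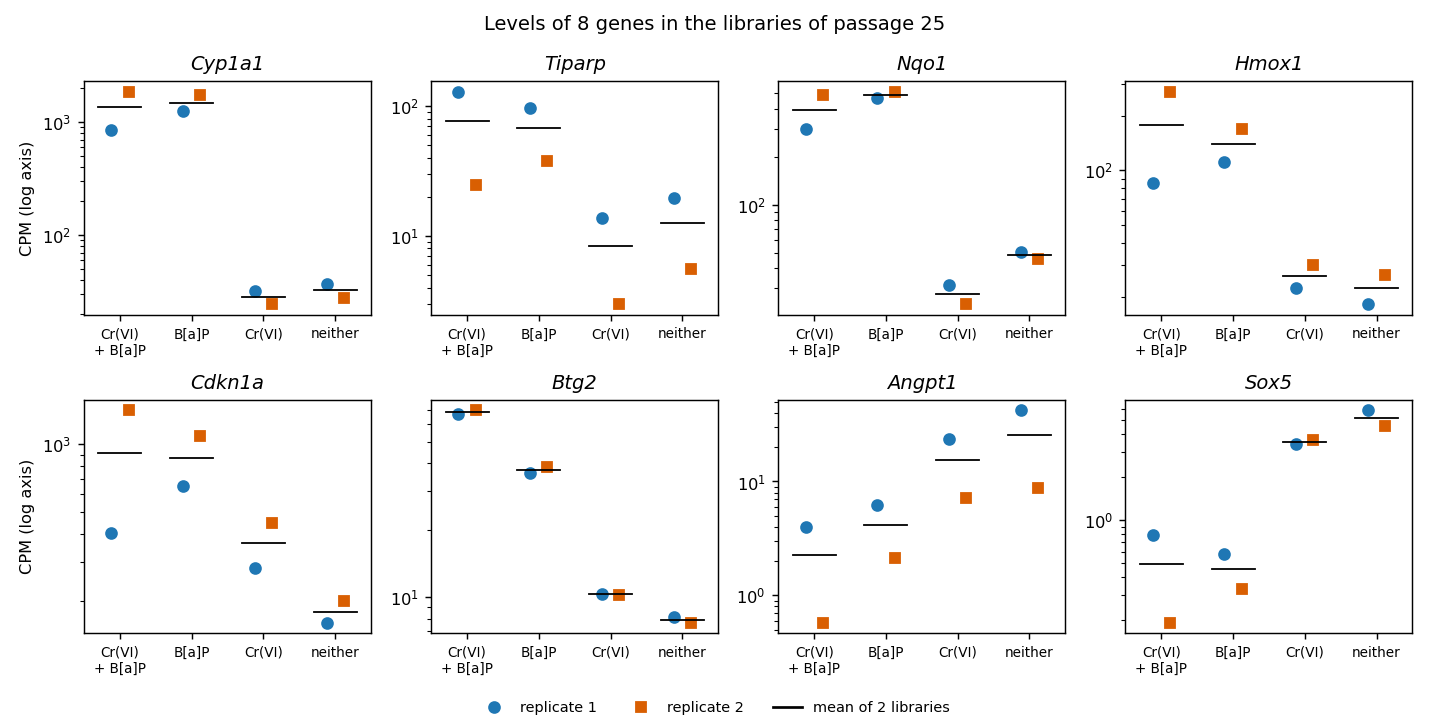
CPM on a log axis of 8 genes in the 8 libraries of passage 25 with the joint exposure, B[a]P alone, Cr(VI) alone and neither agent, with a bar at the mean of 2 libraries. Cyp1a1 sits at 847 and 1861 CPM with the joint exposure and at 1246 and 1738 CPM with B[a]P alone, against 37.3 and 28.0 CPM with neither agent, while Angpt1 and Sox5 are lowest in the groups given B[a]P.

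Antioxidant genes under the transcription factor NRF2 were also examined. Of 27 tested, 5 rose and 0 fell, against 1.88% and 2.46% of all genes, with a median of log2 0.48 that was 0.16 in the replicate 1 pair and 0.79 in the replicate 2 pair. Without joint replicate 1, 7 rose with a median of 0.86, and without joint replicate 2, 1 rose with a median of 0.02. Without either library of neither agent 1 rose as well, and in all 3 of these fits it was Nqo1, which is also in the AHR target list. Hmox1, the gene of heme oxygenase 1, which breaks down heme, was at 84.9 and 271 CPM in joint libraries, 112 and 169 CPM with B[a]P alone, 22.6 and 30.1 CPM with Cr(VI) alone and 18.4 and 26.7 CPM with neither agent. The groups with and without B[a]P did not overlap, and the rise was 7.52-fold (log2 2.91 ± 0.50, adjusted p = 0.00828). Gclc, the catalytic subunit of glutathione synthesis, rose 3.43-fold, the sulfiredoxin gene Srxn1 2.95-fold and the growth inhibitor gene Osgin1 3.15-fold. The partner subunit Gclm (log2 1.01 ± 0.35, adjusted p = 0.132) and the thioredoxin reductase gene Txnrd1 (log2 0.76 ± 0.30, adjusted p = 0.189) did not pass. Conjugating enzymes and exporters attach glutathione, glucuronic acid or sulfate to oxidised compounds or pump them out. Of 22 such genes 0 passed. Their median was 0.33, and 19 were positive, 11 of them in both pairs (6657 and 3800 of all 13692 genes). The median was 0.69 without joint replicate 1, where 1 passed, and -0.11 without joint replicate 2, with 0.20 and 0.40 without replicate 1 and 2 of neither agent.

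The metal response gave no call. Mt1 and Mt2 encode metallothioneins, small proteins that bind zinc, cadmium and copper. Mt1 was at 72.0 and 280.2 CPM with the joint exposure, 153.7 and 299 CPM with Cr(VI) alone and 92.5 and 154 CPM with neither agent, so joint replicate 1 was below its pair and joint replicate 2 above it (log2 0.26 ± 0.31, adjusted p = 0.692). Mt2 had the same split (log2 0.51 ± 0.31, adjusted p = 0.398), and 0 of 9 genes of the list passed.

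Targets of p53, the transcription factor that DNA damage activates, formed a further list. Of 34 tested, 10 rose and 0 fell, against 1.88% and 2.46% of all genes. Of the 34, 31 were positive and 27 were positive in both pairs, against 6657 and 3800 of all 13692 genes. The median was log2 0.90 (0.61 in the replicate 1 pair and 0.92 in the replicate 2 pair). Without joint replicate 1, 11 rose, and without joint replicate 2 there were 4. Without replicate 1 of neither agent 2 rose, and without its replicate 2 there was 1. Trp53 itself was at log2 -0.15 and did not pass.

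Btg2, an antiproliferative gene, gave one of the closest pairs of replicates. It was at 67.0 and 69.5 CPM in joint libraries, 36.3 and 38.4 CPM with B[a]P alone, 10.3 and 10.3 CPM with Cr(VI) alone and 8.13 and 7.67 CPM with neither agent. The joint libraries were the highest of the 8, and the rise over neither agent was 8.70-fold (log2 3.12 ± 0.30, adjusted p = 4.64e-04). Cdkn1a, the gene of the cyclin kinase inhibitor p21, was at 401 and 1420 CPM with the joint exposure, 652 and 1087 CPM with B[a]P alone, 281 and 445 CPM with Cr(VI) alone and 160.4 and 199.5 CPM with neither agent. Joint replicate 1 lay below replicate 2 of Cr(VI) alone, so those groups overlapped, while both joint libraries exceeded both with neither agent (4.49-fold, log2 2.17 ± 0.39, adjusted p = 0.0105). The stress-induced cytokine gene Gdf15 rose 3.33-fold and Sesn2, which restrains the growth kinase mTORC1, 3.95-fold. The polo-like kinase gene Plk3 rose by log2 1.71 ± 0.25 and the death domain gene Pidd1 by 1.60 ± 0.23. Mdm2, the ligase that degrades p53, was at 384 and 59.2 CPM against 187 and 31.0 CPM with neither agent and did not pass (log2 0.99 ± 0.35, adjusted p = 0.14), and neither did the death effector Bbc3 (log2 1.15, adjusted p = 0.0834). Of 21 BCL2 family and death genes the pro-apoptotic Bmf alone passed (4.76%, near the 4.34% of all genes). Bmf was at 18.5 and 32.2 CPM against 3.18 and 1.98 CPM with neither agent, 9.82-fold higher.

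Immediate early genes, which encode transcription factors and feedback proteins that react within minutes to signals, had 6 rises in 23 and 0 falls, against 1.88% and 2.46% of all genes, with a median of 0.45. Fos was at 12.01 and 5.75 CPM in joint libraries and 4.13 and 1.67 CPM with neither agent, 3.14-fold higher, and Fosl1 rose 2.64-fold, Nr4a1 2.34-fold, Zfp36 2.22-fold and Jun 2.13-fold. This count fell to 3 without joint replicate 1, to 1 without joint replicate 2 and to 0 without either library of neither agent. Atf3 was at log2 0.35 ± 0.21 and did not pass. Csf3, which encodes the growth factor of granulocytes, rose 9.68-fold at low levels (10.2 and 6.17 CPM against 1.63 and 0.10 CPM). Further large rises were those of Ido2, an enzyme of tryptophan breakdown (2.04 and 1.00 CPM against 0.12 and 0.10 CPM), of Tnfaip2 (10.5-fold), of the atypical cyclin gene Ccno (9.68-fold) and of Mrgprg (0.17 and 5.10 CPM against 0.02 and 0.16 CPM).

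Genes that fell were mostly long. The median genomic span was 186.0 kb for the 337 that fell, 14.4 kb for the 257 that rose and 20.9 kb over the whole set of tested genes. Of those that fell, 253 (75.1%) spanned over 100 kb, against 7 (2.72%) of those that rose and 11.1% of all. Among 258 genes over 300 kb, 27.5% fell and 0 rose, and among 3854 genes under 10 kb, 0.441% fell and 2.34% rose. The median of genes over 300 kb was log2 -0.73 in the replicate 1 pair and -1.09 in the replicate 2 pair, and for genes under 10 kb it was -0.06 and 0.17. Without joint replicate 1, 152 of 203 falls (74.9%) spanned over 100 kb, and in the other leave-one-out fits the share was 81.7% to 91.0%. Long genes also hold more intron sequence, and the share of counts from unspliced RNA cannot be told apart in a table of counts per gene.

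**Figure D3:**
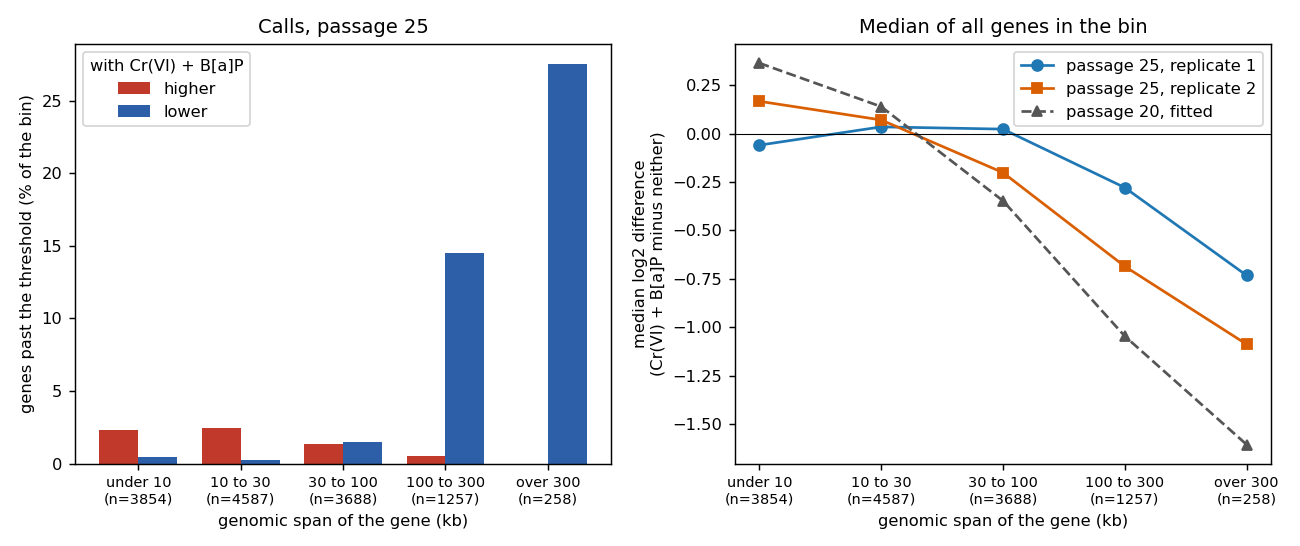
Left, percent of genes that rose or fell with the joint exposure at passage 25 in 5 bins of genomic span (kb). Right, the median log2 difference of the joint exposure minus neither of all genes in each bin, which for genes over 300 kb was -0.73 and -1.09 in the 2 replicate pairs of passage 25.

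Angpt1, which encodes the vessel-stabilising ligand angiopoietin 1 and spans 252 kb, was at 3.98 and 0.57 CPM in joint libraries, 6.22 and 2.13 CPM with B[a]P alone, 23.5 and 7.12 CPM with Cr(VI) alone and 42.3 and 8.76 CPM with neither agent. The joint library was the lowest of the 4 within each replicate number, and the fall was 11.3-fold (log2 -3.50 ± 0.36, adjusted p = 6.14e-04). Sox5, a transcription factor gene of 954 kb, was at 0.79 and 0.19 CPM against 5.85 and 4.54 CPM with neither agent (log2 -3.46 ± 0.50, adjusted p = 0.00336). Pknox2, a homeobox gene, was at 0.12 and 0.34 CPM against 1.95 and 8.29 CPM (log2 -4.30 ± 0.47, adjusted p = 9.25e-04). In all of these the groups did not overlap. Ror1, a receptor of Wnt5a, fell by 3.02 ± 0.48 and Cdkal1, which modifies transfer RNA, by 2.90 ± 0.39 on the log2 scale. Maml2, a coactivator of Notch, fell by 2.45 ± 0.41 and the phospholipase gene Plcb1 by 2.43 ± 0.29.

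Formins build unbranched actin filaments, and protein kinase C enzymes relay lipid signals. Of 20 such genes, 5 (25.0%) fell and 0 rose, against 2.46% of all genes, 14.5% of genes of 100 to 300 kb and 27.5% of those over 300 kb that fell. Fhod3 and Prkce, the largest falls of the list, span 425 and 490.1 kb. The list's share lies between those of the 2 span bins, and whether span accounts for it was not tested. Like the other lists, it was chosen with earlier results of these data known, so its share is not independent of them. Fhod3 was at 0.81 and 1.07 CPM with the joint exposure and 5.53 and 6.94 CPM with neither agent (log2 -2.74 ± 0.32, adjusted p = 0.00146). Prkce was at 4.56 and 1.65 CPM against 18.2 and 13.1 CPM, 5.61-fold lower, and Diaph2 and Fmnl2 were 3.60-fold and 2.71-fold lower. Without joint replicate 1 again 5 fell, and without any one of the other 3 libraries 2 did, with 1 rise without joint replicate 2. The junction gene Magi1, in the list of very long genes at fragile sites, fell by 2.00 ± 0.24 (log2). One of the falls outside the long genes was that of Ung. It encodes the uracil-DNA glycosylase of base excision repair, spans 8.96 kb and was at 4.41 and 4.83 CPM in joint libraries, 7.04 and 6.46 CPM with B[a]P alone, 14.4 and 13.6 CPM with Cr(VI) alone and 17.6 and 17.8 CPM with neither agent. The joint libraries were the lowest of the 8, and the fall was 3.84-fold (log2 -1.94 ± 0.24, adjusted p = 0.00154).

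Genes of cell division had negative values, with a share of calls near that of all genes (3.57% in the S phase list and in the G2 and M phase list, against 4.34%). All 28 S phase genes had a negative value, 25 of them in both pairs, with a median of -0.59. Of all 13692 genes tested, 7035 were negative, and 4308 were negative in both pairs. In the S phase list 1 passed, the primase-associated polymerase gene Pola1 (log2 -1.26 ± 0.27, adjusted p = 0.0223). All 28 genes of G2 and M phase were negative, 23 in both pairs, with a median of -0.57, and 1 passed, the spindle checkpoint gene Mad2l1 (log2 -0.83 ± 0.21, adjusted p = 0.0458). Without joint replicate 1, 7 of the G2 and M genes fell with a median of -0.88, and without any one of the other 3 libraries 0 did. Of 34 genes of break and crosslink repair, 28 were negative with a median of -0.39, and Fancl of the Fanconi anaemia pathway passed (log2 -1.13 ± 0.26, adjusted p = 0.0325), but 0 passed in any of the 4 leave-one-out fits. Excision repair gave 1 rise, the endonuclease gene Ercc5 (2.07-fold), and 1 fall, Ung, in 33 (6.06%). The Ercc5 call was lost in every leave-one-out fit. All 8 mismatch repair genes were negative in both pairs with a median of -0.41 and 0 passed.

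Metabolic and liver lists gave few calls, and the share called over all genes was 4.34% (1.88% higher and 2.46% lower). Of all 13692 genes, 6657 had a positive value and 7035 a negative one. Of 23 sterol synthesis genes 20 were negative with a median of -0.52 and 0 passed, and the median was -0.24 without replicate 1 of neither agent and -0.77 without its replicate 2. Acaca, the rate-limiting carboxylase of fatty acid synthesis, fell 1.87-fold as the single call in 16 lipogenesis genes (6.25%). Of 15 proteins secreted by hepatocytes 0 passed, with a median of -0.56 in the replicate 1 pair and 0.49 in the replicate 2 pair. The 30 ribosomal protein genes had a median of -0.83 in the replicate 1 pair and 0.07 in the replicate 2 pair, and 30 genes of oxidative phosphorylation -0.69 and 0.08, with 0 calls in either list. Without joint replicate 1 the fitted medians of the ribosomal and oxidative lists were 0.10 and 0.09, against -0.32 and -0.25 with it. In the hypoxia list (8.0% called) the stress gene Ndrg1 rose 3.11-fold and the oxygen sensor gene Egln1 fell 1.81-fold. The Egln1 call was lost in every leave-one-out fit. Among 25 interferon genes 20 were positive with a median of 0.54, and 1 passed (4.0%), the RNA sensor gene Ddx58 (2.39-fold). The ATF4 stress response had 2 rises in 21 (9.52%), Ddit4 and Sesn2, and heat shock genes 1 in 17 (5.88%), Hspa4l. Snai1 rose and the cadherin gene Cdh2 fell among 22 mesenchymal genes, and Esrp2 rose and Cldn2 fell in 18 epithelial ones (11.1%). The Cdh2 call was lost in every leave-one-out fit. Histone deacetylase gene Hdac4 fell 2.53-fold as the single call in 30 chromatin modifiers (3.33%). Endoplasmic reticulum chaperones, fat oxidation, translesion polymerases, the circadian clock, hepatocyte transcription factors, nuclear long noncoding RNAs and replication histones had 0 calls each.

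**Figure D4:**
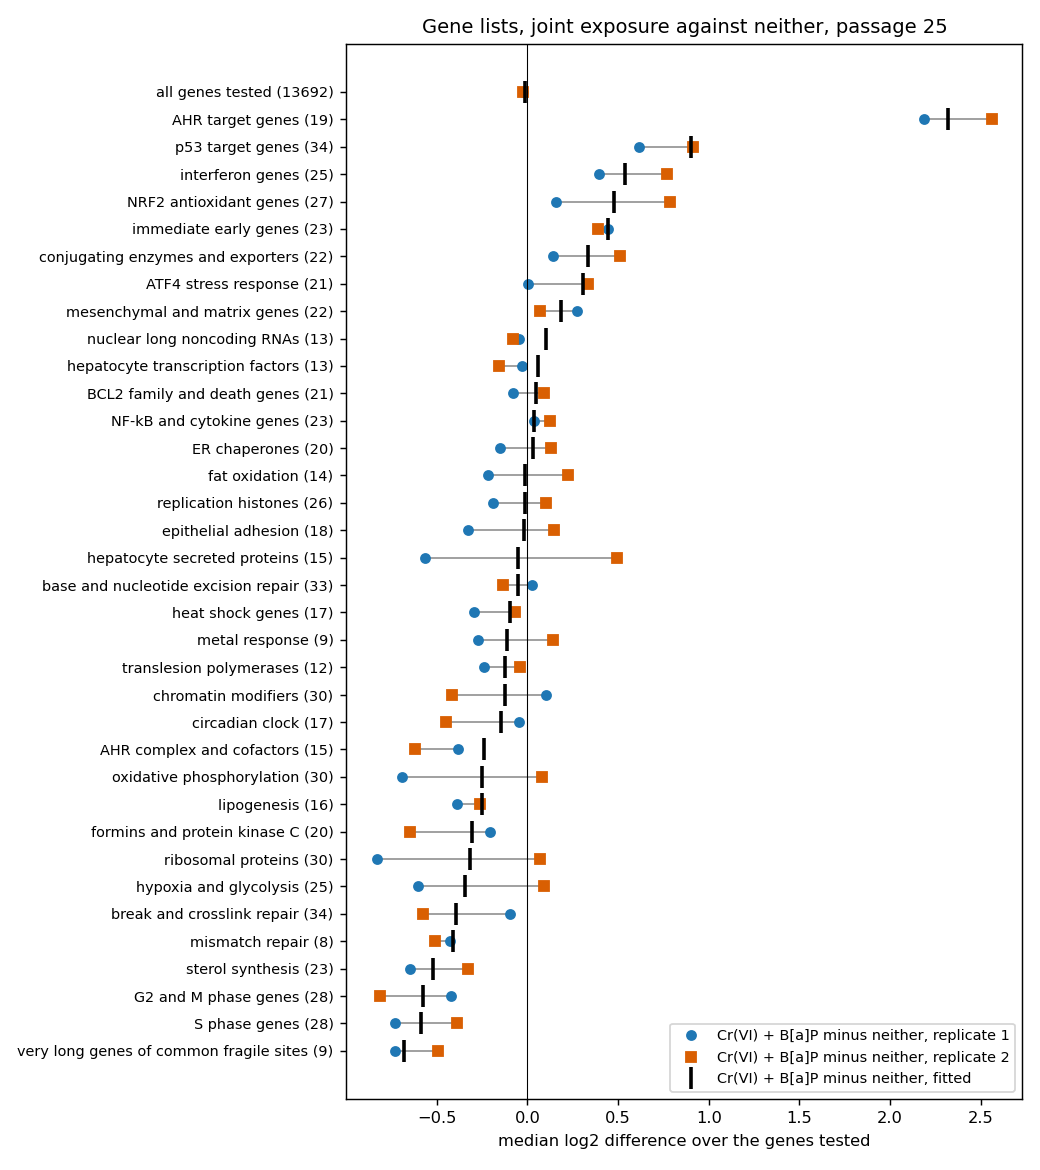
Median log2 difference of the joint exposure minus neither at passage 25 for each gene list, with the number of genes tested in parentheses, in replicate 1, in replicate 2 and as fitted. AHR targets lie highest at a fitted 2.32, and the ribosomal protein list shows a gap between replicates, -0.83 and 0.07.

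Markers of other cell types gave 1 call. In a bulk sample fewer cells of a type and less RNA per cell cannot be told apart. The 10 endothelial markers summed to 8.45 and 6.67 CPM in joint libraries and 8.25 and 6.56 CPM with neither agent. The 10 macrophage markers summed to 128 and 92.5 CPM against 100.35 and 83.8 CPM, with Marco at 0 in all 4 libraries. The lysosomal gene Cd68 was the 1 call in the 4 tested (25.0%, against 4.34% of all genes). It was at 4.56 and 4.75 CPM against 1.88 and 1.30 CPM with neither agent (log2 1.51 ± 0.31, adjusted p = 0.0172). This call was lost in each of the 4 leave-one-out fits. Stellate cell and fibroblast markers summed to 1038 and 1126 CPM against 1120.4 and 1051 CPM, with Lrat, Lum and Reln at 0. Cholangiocyte markers summed to 655 and 1231 CPM against 714 and 1115 CPM, with Epcam and Onecut1 at 0. Among the 8, 4 and 6 tested genes of the stellate, endothelial and cholangiocyte lists 0 passed.

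What chromium added to B[a]P was tested by setting the joint exposure against B[a]P alone. In edgeR 0 of 13692 genes passed, while 1272 had an unadjusted p under 0.05. DESeq2 with the same block called 17, 12 higher and 5 lower. The median of all genes in this contrast was -0.12. For Cyp1a1 the difference was log2 -0.16 with a 95% interval of -0.96 to 0.65, for Nqo1 -0.31 (-0.94 to 0.33) and for Tiparp -0.15 (-0.79 to 0.50). It was 0.27 (-0.73 to 1.28) for Hmox1 and -0.05 (-0.87 to 0.76) for Cdkn1a. Differences anywhere inside these intervals remain compatible with the 2 libraries a group, and the intervals are not adjusted for the number of genes tested. The values of Btg2 were apart, at 67.0 and 69.5 CPM with the joint exposure against 36.3 and 38.4 CPM with B[a]P alone, but the difference did not pass (log2 0.87, interval 0.27 to 1.47, adjusted p = 0.44). Angpt1 was at -1.06 (-1.82 to -0.31, adjusted p = 0.44). The smallest p-values belonged to Atg9b, an autophagy gene at 63.5 and 8.28 CPM against 11.2 and 3.64 CPM with B[a]P alone (log2 1.87 ± 0.31), and Svep1, an extracellular matrix gene at 3.73 and 6.67 CPM against 11.6 and 20.9 CPM (log2 -1.64 ± 0.29), with an adjusted p of 0.44 for each.

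The values of the single exposures stand beside those of the joint one as follows, and they share the libraries with neither agent. Of 13692 genes, 255 passed for B[a]P alone (1.86%), 150 higher (1.1%) and 105 lower (0.767%), and 0 for Cr(VI) alone in edgeR, with 206 in DESeq2 and 2343 with an unadjusted p under 0.05. The 257 genes that rose with the joint exposure had a median of log2 1.52 there, 1.15 with B[a]P alone and 0.34 with Cr(VI) alone. For the 337 that fell the medians were -1.26 with the joint exposure, -0.88 with B[a]P alone and -0.37 with Cr(VI) alone. A call in one contrast and none in another does not show that they differ, and the direct test against B[a]P alone is the one given above.

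The interaction asks whether the joint effect departs from the sum of both single effects on the log scale. In edgeR 0 genes passed, with 2142 at an unadjusted p under 0.05, while DESeq2 with the same block called 484, 1 higher and 483 lower. These 483 had a median of -2.38 computed from the replicate 1 libraries and -0.55 from the replicate 2 libraries. Ribosomal protein genes had -1.42 and -0.20 by the same computation, and AHR target genes -0.17 and 0.08. In edgeR the count was 582 without replicate 2 of B[a]P alone and 0 without any one of the other 7 libraries. The median interaction over all genes was log2 0.02 with every library. It was -0.10 without joint replicate 1, -0.08 without replicate 1 of B[a]P alone and 0.03 without joint replicate 2.

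B[a]P given to chromium-grown cells gave nearly as many calls as the joint exposure against neither. Against Cr(VI) alone 561 genes passed (4.10%), 217 higher (1.58%) and 344 lower (2.51%). Large differences were those in Cyp1a1 (log2 5.54), at 847 and 1861 CPM with the joint exposure against 31.9 and 24.5 CPM with Cr(VI) alone, in Pknox2 (-5.21) and in Mrgprg (6.06, with at most 0.06 CPM with Cr(VI) alone). Adh7 was at 108 and 51.9 CPM against 9.42 and 2.82 CPM with Cr(VI) alone (log2 3.86). Krt83, a hair keratin gene, was at 0.35 and 4.87 CPM with the joint exposure, 9.91 and 27.4 CPM with Cr(VI) alone and 0.19 and 18.6 CPM with neither agent. It was lower than with Cr(VI) alone (log2 -3.86, adjusted p = 0.041) but not than with neither agent (adjusted p = 0.429). The count was 48 to 272 without either Cr(VI) library or without joint replicate 1, which left 95, and 1624 without joint replicate 2.

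The joint exposure of passage 20 shares no library with that of passage 25 and gave many of the same calls. At passage 20, 4208 of 14343 genes passed with the replicate block (29.3%), 1813 higher and 2395 lower. The fit without the block dropped it at both passages, and 527 passed. That fit does not isolate the passage 20 replicate numbers, because the replicate difference of passage 25 then enters the shared spread. A fit of only the 8 libraries of passage 20 with the block gave 3534 of 13969. The replicate numbers did not pair the libraries of passage 20. Of the 257 genes that rose at passage 25, 241 were positive at passage 20 (93.8%, against 48.5% of all genes) and 184 passed as higher (71.6%, against 11.7% of all). Of the 337 that fell, 335 were negative there (99.4%) and 319 passed as lower (94.7%, against 17.1% of all). Without the block at either passage, 60 of the 257 (23.3%) and 132 of the 337 (39.2%) passed at passage 20 in the same direction. Among all genes the shares were 1.48% and 1.96%. As shares of the passage 20 calls among genes tested in both fits, the 184 were 11.5% of 1599 higher genes and the 319 were 13.6% of 2345 lower ones.

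At the level of single genes, Cyp1a1 was at 1234 and 1195 CPM in joint libraries of passage 20 against 38.2 and 36.6 CPM with neither agent (log2 5.02 ± 0.41). Cdkn1a was at 1399 and 1679 CPM against 188 and 188 CPM, and Sox5 at 0.34 and 0.21 CPM against 11.6 and 10.3 CPM. The spread between replicates was smaller at passage 20 for Cyp1a1 and Cdkn1a. Median values by span were steeper at passage 20, at log2 -1.61 for genes over 300 kb and 0.36 for genes under 10 kb, a difference between passages that was not tested. Mt1 and Mt2, which did not pass at passage 25, were higher at passage 20 (log2 1.15 ± 0.37, adjusted p = 0.0333, and 1.61 ± 0.38, adjusted p = 0.00645), and the difference between passages did not pass for either (adjusted p = 0.38 and 0.30). Aox3, which rose at passage 25, was at log2 0.19 at passage 20 and did not pass (adjusted p = 0.653).

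The joint effect itself was compared between passages. Of 14343 genes 6 differed (0.0418%), 3 with a more positive effect at passage 25 (0.0209%) and 3 with a more negative one (0.0209%). Hpx, the plasma heme scavenger, was at 3.67 and 4.41 CPM against 0.28 and 0.34 CPM at passage 20, and at 1.96 and 6.32 CPM against 3.58 and 7.51 CPM at passage 25. It rose at passage 20 and did not pass at passage 25, where the groups overlapped, and its level with neither agent was higher at passage 25. The other 5 were Gzmm, Tlcd2, Nuak1, Ccn2 and Trib1. Nuak1, a stress kinase gene, fell at both passages, to 16.9 and 12.9 CPM against 155.7 and 154 CPM at passage 20 and to 73.1 and 60.3 CPM against 144 and 152.5 CPM at passage 25. All 6 calls were lost without the block and without any one of 7 of the 8 libraries, and all 6 held without joint replicate 2 of passage 25, where 117 genes passed in all.

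**Figure D5:**
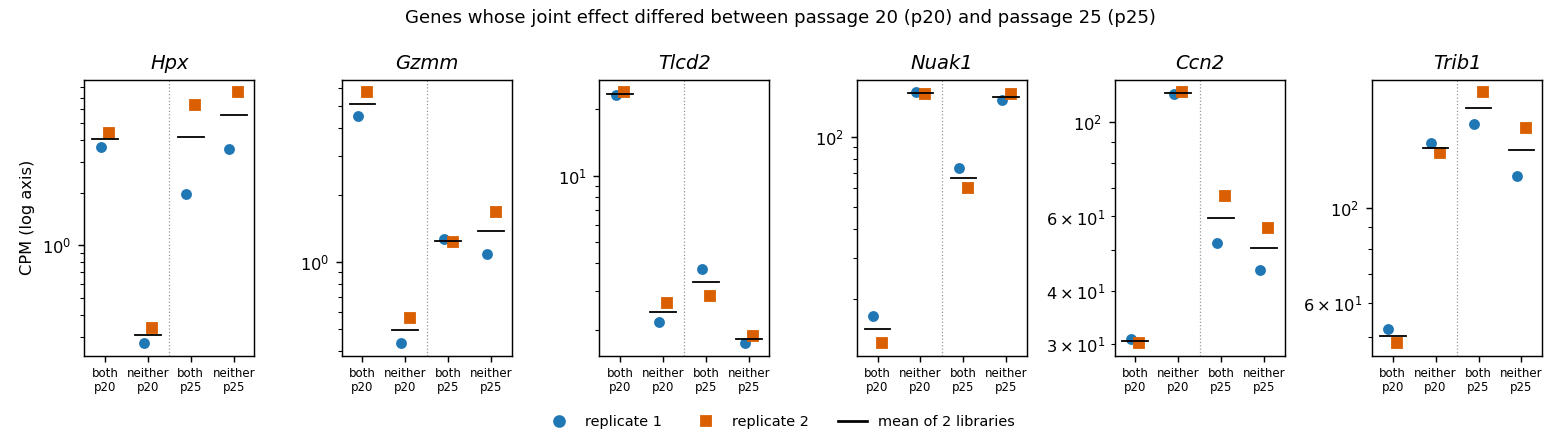
CPM on a log axis of the 6 genes whose joint effect differed between passages, in the libraries with both agents and with neither at passage 20 and at passage 25, with a bar at the mean of 2 libraries. Hpx, Gzmm and Tlcd2 are well apart between the groups at passage 20 and near each other at passage 25, and Ccn2 and Trib1 lie lower with both agents at passage 20, with log2 values of 0.24 and 0.33 at passage 25.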

How the data were processed

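RNA was sequenced from 20 Hepa-1 libraries, 2 in each of 10 groups. The deposited table holds raw counts per Entrez gene ID, 1 column per library. Per the submitters' processing notes, the tools were TopHat, DESeq, CASAVA 1.8 and bcl2fastq and the build was mm10, with no roles stated. Which program counted reads, with which annotation and strand setting, is not given in the sources used here. Reads of close paralogs or overlapping genes may be split or shared. Of 23373 IDs, 23275 were matched to symbols and spans in RefSeq of GRCm38.p6, the assembly called mm10. Total counts per library were 20976045 to 37930720.

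The test was that of edgeR 4.0.16 under R 4.3.3 (filterByExpr with a minimum count of 10, TMM, quasi-likelihood F test, two-sided, Benjamini-Hochberg over all genes tested, threshold 0.05). The fit for passage 25 held its 12 libraries, those of recovered cells (chromium withdrawn) included, 6 group means and the replicate number as a block (13692 genes, 5 residual degrees of freedom). Passage 20 and the difference between passages came from all 20 libraries with the replicate number within passage as a block (14343 genes, 8 residual degrees of freedom). The SE is the log2 value divided by the square root of F. CPM use TMM-scaled library sizes, except sums over marker and ribosomal lists, which use total counts without that scaling. The labels do not say whether duplicates are separate cultures, so the spread between libraries may be technical. A p-value with the block covers only the spread left after the replicate difference shared by groups of a passage is removed.

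Pairing was checked by correlating replicate 2 minus replicate 1 differences between groups over genes. All 15 correlations at passage 25 were 0.81 to 0.92, which met the criterion for pairing (every value over 0.1). The 6 at passage 20 lay between 0 and 0.59 and did not meet the criterion. DESeq2 1.42.0, no block, other scaling, other filters, other sets of libraries and leaving out each library were alternatives. The libraries, lists and tests were chosen with earlier results of these data known. Named genes were the 12 largest rises and falls past the threshold with the same sign in both pairs and at least 1 CPM in the higher group, up to 4 called genes per list, up to 6 per further contrast, and index genes. Atg9b, Svep1, list members given as not passing, and genes called in every leave-one-out fit were named after their values were seen. Of 880 list entries, 876 were matched. One result is not reported here.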

Additional observations from a re-analysis of the deposited data

Results flagged for a closer look

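The 6 genes below had a joint effect that differed between passages by the test of that difference, given here as the effect at passage 25 minus that at passage 20 on the log2 scale (edgeR, adjusted p between 0.029 and 0.041). Hpx differed by -4.25 ± 0.60 and the granzyme gene Gzmm by -3.46 ± 0.50. Gzmm was at 4.50 and 5.76 CPM with both agents against 0.43 and 0.56 CPM with neither at passage 20, and at 1.27 and 1.23 CPM against 1.09 and 1.67 CPM at passage 25. Tlcd2 differed by -2.39 ± 0.36, at 23.2 and 23.9 CPM against 2.17 and 2.65 CPM at passage 20 and at 3.77 and 2.84 CPM against 1.74 and 1.88 CPM at passage 25. Nuak1 differed by 2.27 ± 0.35. Ccn2, which encodes the matrix protein CTGF, differed by 2.20 ± 0.32, at 30.8 and 30.2 CPM against 116.8 and 117.7 CPM at passage 20 and at 51.8 and 67.2 CPM against 44.9 and 56.2 CPM at passage 25. The pseudokinase gene Trib1 differed by 1.803 ± 0.25, at 52.3 and 48.5 CPM against 141 and 134 CPM at passage 20 and at 156 and 185 CPM against 118.3 and 153 CPM at passage 25. The libraries of passage 20 are not paired by their replicate numbers.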

How the results depend on the processing

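With 2 libraries a group, the spread rests on 5 residual degrees of freedom and on the replicate block, and low counts limit genes near 1 CPM. Without the replicate block the counts of genes past the threshold were 0 for the joint exposure against neither (594 with it), 0 for joint against Cr(VI) alone (561), 0 for B[a]P alone (255), 527 for the joint exposure at passage 20 (4208) and 0 for the passage difference (6). The last 2 counts came from all 20 libraries with the block dropped at both passages. In that fit the first 3 counts were 12, 8 and 7, and with the block within passage B[a]P alone had 388. DESeq2 with the block called 1069 for joint against neither, 581 of them shared with the 594, 17 for joint against B[a]P alone, 1636 for joint against Cr(VI) alone, 484 for the interaction, 708 for B[a]P alone, 206 for Cr(VI) alone and 483 for the passage difference. Without a low-count filter joint against Cr(VI) alone had 956, Cr(VI) alone 4 and the passage difference 66, and the stricter filter gave 16 for the last. Leaving out 1 library gave 35 to 395 for joint against neither, 48 to 1624 for joint against Cr(VI) alone, 0 to 582 for the interaction, 27 to 109 for B[a]P alone, 1259 to 3178 for the joint exposure at passage 20 and 0 to 117 for the passage difference, where 117 came without joint replicate 2 of passage 25. Where not stated, the cause was not tested. Among named genes the sign of joint against neither turned in 4 when 1 library was left out, all of them without a call: Mt1 (log2 -0.19 to 0.63), Mt2 (log2 -0.14 to 1.00), Afp (log2 -0.80 to 0.038) and Krt83 (log2 -2.22 to 1.45). In edgeR, scaling by relative log expression in place of TMM changed the call of 1 of 78 named genes.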

Other observations

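The 32 genes that passed in each of the 4 leave-one-out fits include signalling genes outside the lists, chosen here after their values were seen. Lif, which encodes the cytokine leukemia inhibitory factor, was at 76.9 and 28.6 CPM with the joint exposure, 35.6 and 22.5 CPM with B[a]P alone and 14.7 and 8.81 CPM with neither agent (log2 2.06 ± 0.26). Its joint libraries were the higher of the groups within each replicate number. Bdkrb2, the bradykinin receptor gene, was at 15.4 and 21.1 CPM with the joint exposure and 3.67 and 5.58 CPM with neither agent (log2 1.99 ± 0.23), and was at log2 0.55 ± 0.47 at passage 20, where it did not pass (adjusted p = 0.397). Entpd2, an enzyme that breaks down extracellular nucleotides, rose by log2 2.72 ± 0.31, and the P450 gene Cyp2s1 by 2.52 ± 0.32. Vasn, which encodes a membrane protein that binds TGF-beta, rose by 2.03 ± 0.24.

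Falls of the same kind were those of Vegfc, a growth factor gene of lymphatic vessels, at 2.89 and 2.30 CPM with the joint exposure, 2.68 and 1.98 CPM with B[a]P alone and 10.8 and 7.82 CPM with neither agent (log2 -1.83 ± 0.25). The bicarbonate transporter gene Slc4a4 fell by 2.20 ± 0.29 on the log2 scale. The adaptor gene Shb was at 23.1 and 25.6 CPM with the joint exposure, 45.9 and 34.7 CPM with B[a]P alone and 77.6 and 78.3 CPM with neither agent (log2 -1.68 ± 0.21). Its joint libraries were the lowest of these 6.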
